A study of Mus musculus with 14 samples.

Results

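Inguinal fat of mice carrying the SRA transgene was compared with inguinal fat of non-transgenic mice, all of them infused with CGP, which activates the type 2 receptor for angiotensin. The comparison took in 8 of the 14 libraries of the series, chosen by their labels: 4 SRA_CGP libraries from transgenic mice and 4 CON_CGP libraries from mice without the transgene. Each group held 2 males (replicates 1 and 2) and 2 females (replicates 3 and 4), all on the C57BL/6J strain. The SRA transgene switches on the renin-angiotensin system of the brain. Both groups received the agonist, so the comparison shows the transgene on a background of CGP and not the action of CGP itself. The other 6 libraries came from mice infused with saline, 3 without the transgene (CON) and 3 with it (SRA), and served to estimate the spread and to place the saline difference beside that under CGP. The sources used here do not state the promoter of the transgene, the dose and duration of the infusion, the age of the mice or whether a library was 1 mouse or a pool, so p-values measure the spread between these libraries, which may be technical.

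The renin-angiotensin system is a hormone cascade in which renin cuts angiotensinogen and later steps yield angiotensin II, which acts through type 1 and type 2 receptors. Within the brain the system takes part in blood pressure, drinking and the sympathetic outflow that reaches fat. Inguinal fat is a subcutaneous depot whose adipocytes mostly store lipid and can take on heat-producing, beige features under sympathetic drive. The series concerns type 2 receptors of fat and heat production, and this comparison asks how fat of SRA and control mice differed when the receptor's agonist was given to both.

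Rows of the deposited table are UCSC transcript IDs of the mm9 build. No gene name stands beside them and 0 of the 55419 IDs matched the reference tables, so transcripts are given by ID alone, and the labelled tissue could not be checked against its markers. Values are the authors' normalized counts, divided here by a factor per library from the median ratio over 39907 rows without zeros (0.855 to 1.161), and are called rescaled values below. Tests covered the 31967 transcripts whose deposited mean across all 14 libraries reached 100. Totals were scaled by the authors to between 79970748 and 79985973 per library, so sequencing depth is unknown. In bulk tissue, fewer cells of a type and less RNA per cell cannot be told apart.

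Some libraries held transcripts that otherwise marked the other sex. A set of 12 transcripts was at 100 or more in every male, lower in every female and at 1 or less in the lowest female, and 49 transcripts formed the mirror set of females. Both sets were drawn from these same libraries by labelled sex, without gene name or chromosome. They may therefore hold transcripts that vary within a sex for other reasons, and other-sex transcripts below means members of these sets. As a share of the mean total in the sex they mark, these sets reached 13.6% in SRA_CGP replicate 1 and 10.4% in CON_CGP replicate 1, both male. They reached 8.86% in CON_CGP replicate 4 and 8.14% in SRA_CGP replicate 3, both female. In the other 4 CGP libraries the share lay between 0.133% and 1.78%, and in the saline libraries it was at most 4.88%. One male and 1 female library of each CGP group were thus above 5%. Several counts, and the log2 differences of most transcripts named for the difference under CGP, are also given without these 4. The other results include them.

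The 8 libraries did not fall into their genotypes along the main axes of variation. The first principal component of the tested transcripts held 54.7% of the variance, and on it the score was 20.6 ± 100.9 for SRA_CGP and -20.6 ± 50.3 for CON_CGP (SD, n = 4 each; exact permutation p = 0.514, two-sided, adjusted over 6 tests 0.771). Its extremes were both SRA_CGP libraries, the male replicate 2 at -101.2 and the female replicate 4 at 126.1. The third component, with 11.8%, came nearest to the genotypes, with scores of -26.1 ± 23.7 for SRA_CGP and 26.1 ± 24.7 for CON_CGP (SD, n = 4 each; exact permutation p = 0.0571, adjusted 0.171). SRA_CGP replicate 4, at 0.5, lay above CON_CGP replicate 2, at -2.3, so the genotypes overlapped there too. Measured over all tested transcripts, the closest pair of libraries crossed the genotypes. CON_CGP replicate 2 and SRA_CGP replicate 2, both male, lay 0.41 apart (root mean square log2 difference), while same-sex pairs within a group lay 0.45 to 0.83 apart.

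**Figure D1:**
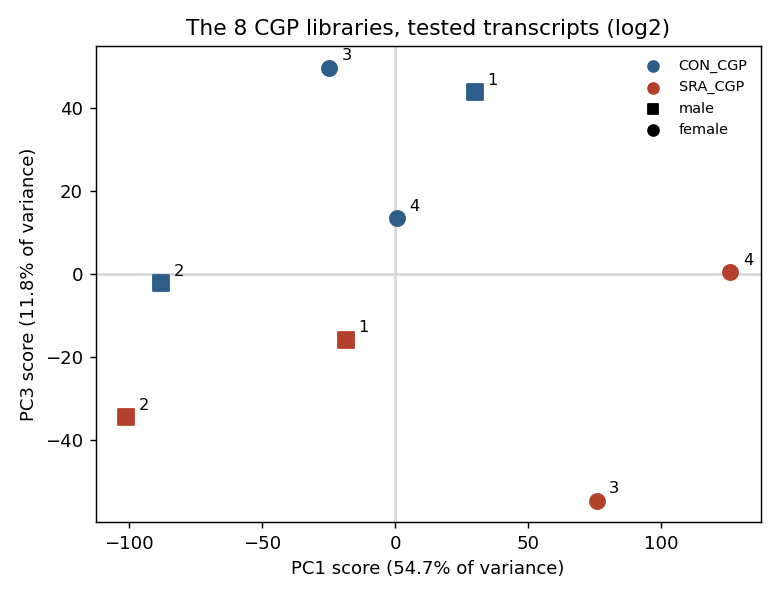
Scores of the 8 CGP libraries on the first (x axis) and the third (y axis) principal component of the log2 values of the tested transcripts, with color for group, squares for males, circles for females and the replicate number beside each point. SRA_CGP spans the first axis from -101.2 to 126.1, and 3 of its 4 libraries lie below 0 on the third.

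No transcript differed between SRA_CGP and CON_CGP at the threshold. limma, in 1 fit of all 14 libraries with a term for sex, called 0 of 31967 transcripts at a Benjamini-Hochberg adjusted p under 0.05 (0% called), and the smallest adjusted p was 0.217. Unadjusted p was under 0.05 for 2164 transcripts (6.77%), 1228 higher in SRA_CGP (3.84%) and 936 lower (2.93%). Near copies, rows within 0.1 log2 units of each other in every library, were common in the table, and the 2164 stood for 1558 clusters of them. Typical differences were small. The median absolute log2 difference was 0.16 and the median SE 0.18, and 90% of transcripts lay between -0.64 and 0.45. A difference of at least 2-fold was fitted for 362 transcripts in the higher direction (1.13%) and for 514 in the lower (1.61%).

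The direction of these counts followed the scaling. With the values as deposited, without rescaling, 592 transcripts were higher and 1665 lower at an unadjusted p under 0.05, so that 26.2% were higher against 56.7% after rescaling, and the tested transcripts had a median log2 difference of -0.11, against -0.004. The number at an unadjusted p under 0.05 also moved with single libraries. It grew to 5292 without CON_CGP replicate 1 and to 4675 without SRA_CGP replicate 2. It shrank to 1138 without CON_CGP replicate 3 and to 1076 without SRA_CGP replicate 3. Without the 4 libraries that held other-sex transcripts it was 1559, of which 1069 were higher, and limma again called 0 (smallest adjusted p = 0.676).

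**Figure D2:**
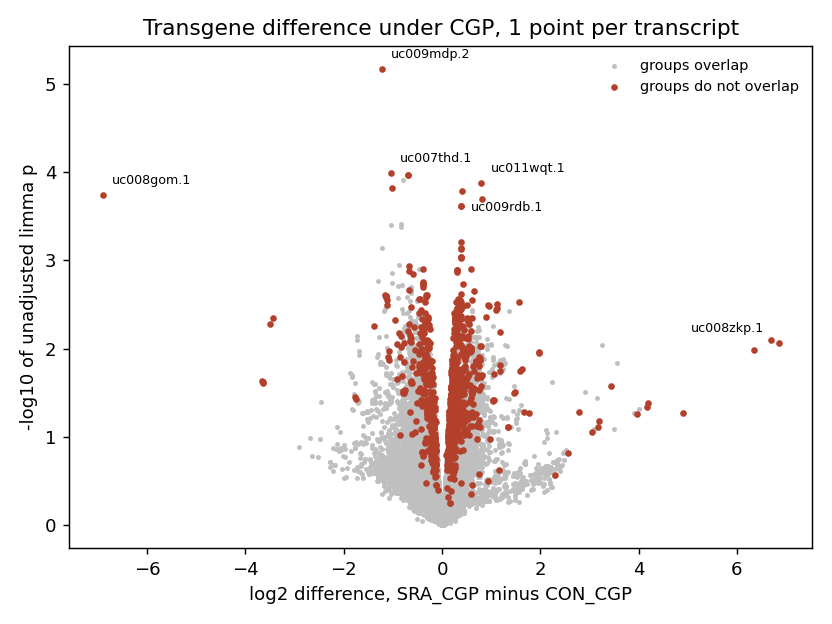
Each point is 1 of the 31967 tested transcripts, with the log2 difference SRA_CGP minus CON_CGP on the x axis and the -log10 of the unadjusted limma p on the y axis. Red points are the 904 transcripts whose 4 values in one group all lie above the 4 of the other. Most of them sit within 0.5 log2 units of 0, and uc009mdp.2 stands at the top.

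The transcript with the smallest p was lower in the transgenic mice. Rescaled values of uc009mdp.2 were 3429, 4234, 3332 and 2693 in CON_CGP replicates 1 to 4 and 1699, 1704, 1393 and 1092 in SRA_CGP replicates 1 to 4. Every SRA_CGP library was below every CON_CGP library, in males and in females. Means were 3420 ± 632 and 1470 ± 292 (SD, n = 4 each), a log2 difference of -1.22 ± 0.16 (SE; 95% interval -1.56 to -0.88), a ratio of 2.33, and limma gave an adjusted p of 0.217. The difference was -1.16 in males and -1.28 in females. Under saline the same transcript stood at 4151, 2659 and 3342 in CON and at 2072, 1994 and 2201 in SRA, again without overlap, with a log2 difference of -0.59 ± 0.18 (SE; limma adjusted p = 0.149). It passed when CON replicate 2 was left out (limma adjusted p = 0.0248, log2 difference -1.22), and in none of the other 22 alternatives fitted for it.

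uc007thd.1, the next by p among the lower transcripts, had rescaled values of 285, 246, 193 and 134 in CON_CGP and 121, 95, 92 and 92 in SRA_CGP. The SRA_CGP libraries lay close together and the CON_CGP libraries spread over a wider range just above them. The log2 difference was -1.04 ± 0.18 (SE; 95% interval -1.44 to -0.65; limma adjusted p = 0.64). Under saline the values were 163, 143 and 107 for CON and 117, 102 and 175 for SRA, which overlap, with a log2 difference of 0.09 ± 0.21 (SE; limma adjusted p = 0.799). The 2 differences were not shown to differ, since the test of the transgene by infusion gave -1.14 ± 0.28 (SE) with a limma adjusted p of 0.927.

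uc011wqt.1 had the smallest p among transcripts higher in SRA_CGP. Its rescaled values were 944, 999, 994 and 829 in SRA_CGP and 578, 445, 520 and 630 in CON_CGP, and the groups did not overlap. The log2 difference was 0.8 ± 0.14 (SE; 95% interval 0.49 to 1.11), a ratio of 1.74, and limma gave an adjusted p of 0.64. Saline libraries stood in the same order, at 728, 658 and 986 in SRA and 523, 542 and 530 in CON, with a log2 difference of 0.58 ± 0.17 (SE; limma adjusted p = 0.14). Among the 14 libraries every transgenic value was therefore above every non-transgenic one.

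uc009rdb.1 was the next among the higher transcripts, at 1932, 1936, 2438 and 2594 in SRA_CGP and 1507, 1568, 1671 and 1903 in CON_CGP. Females were above males of the same genotype, and the lowest SRA_CGP male exceeded the highest CON_CGP female by a narrow margin. The log2 difference was 0.41 ± 0.07 (SE; 95% interval 0.25 to 0.58; limma adjusted p = 0.64). The saline values overlapped, with 1692, 1863 and 2245 in CON and 2172, 2051 and 1827 in SRA. Without the 4 libraries that held other-sex transcripts, the log2 differences of these 4 transcripts under CGP were -1.46 for uc009mdp.2, -1.21 for uc007thd.1, 0.92 for uc011wqt.1 and 0.47 for uc009rdb.1.

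One transcript below the abundance filter stood out when the filter was lowered. uc008qvw.2, with a deposited mean of 41, ran from 49 to 86 in SRA_CGP and from 7 to 18 in CON_CGP, with means of 71.2 ± 15.9 and 11.2 ± 4.8 (SD, n = 4 each). With a minimum mean of 10 its log2 difference was 2.61 ± 0.24 (SE; limma adjusted p = 0.0101), and it was the only transcript to pass there. It was named because it passed in that alternative.

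**Figure D3:**
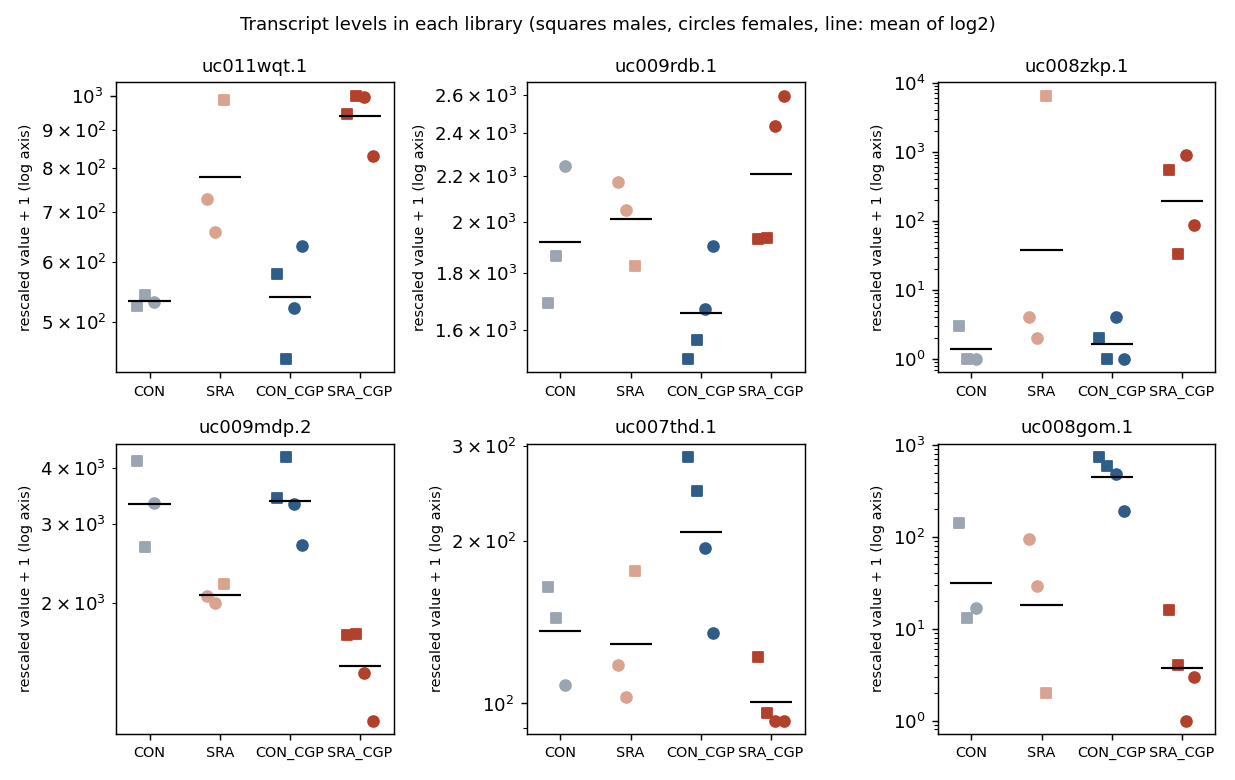
Rescaled value plus 1 (log axis) of 6 transcripts in each of the 14 libraries by group, with squares for males, circles for females and a line at the mean of the log2 values. The upper row holds transcripts higher in SRA_CGP and the lower row those lower in it, and in each panel the 4 SRA_CGP points do not overlap the 4 CON_CGP points.

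Complete separation of the groups was the measure that used no model. All 4 SRA_CGP values lay above all 4 CON_CGP values for 594 transcripts (1.86% of those tested) and below them for 310 (0.97%), which stood for 420 and 223 clusters of near copies. Both directions together came to 904 (2.83%). Labels given at random would separate 4 libraries from 4 with a probability of 0.0286, so the total was close to what random labels give on average. Differences of the separated transcripts were mostly small, with a median absolute log2 difference of 0.28 among the higher and 0.3 among the lower. Of the 594, 479 were under 0.5, and of the 310, 245. Unadjusted p was under 0.05 for 346 of the 594 and 197 of the 310. The order of the directions turned with the scaling, as deposited values gave 328 higher and 529 lower. By mean rescaled value in the CGP libraries, the share that was higher without overlap was 1.38% under 300, 1.52% from 300 to 1000, 2.12% from 1000 to 3000, 2.6% from 3000 to 10000 and 2.52% at 10000 and over. The shares lower without overlap in the same classes were 1.11%, 1.03%, 0.785%, 1.16% and 0.329%. No test was made of these shares. The median SE was 0.26 in the lowest class and 0.15 between 3000 and 10000, so differences of low transcripts were measured less precisely. The 913 transcripts at 10000 and over had a median log2 difference of 0.13, where all tested transcripts had -0.004.

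Leaving out a library makes separation easier, and the count of 904 (2.83% of those tested) became 2686 without SRA_CGP replicate 2 and 2292 without CON_CGP replicate 1. Without CON_CGP replicate 4 it was 1976, and it came to 1701 and 1562 when SRA_CGP replicates 4 and 1 were left out. With the 4 libraries that held other-sex transcripts left out, 2 libraries against 2 remained, and 9237 of the 31967 tested transcripts did not overlap. Groups of 2 separate often whatever their labels, so this rise does not show that the genotypes were further apart.

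Of the separated transcripts 36 were at least 2-fold higher in SRA_CGP and 23 at least 2-fold lower. Among the 36 higher ones, 16 had a mean rescaled value above 1000 in SRA_CGP, and the difference was larger in females than in males for 30 (83.3%). It was larger in females for 10 of the 23 lower ones (43.5%) and, in size, for 66.2% of all tested transcripts. All 36 were also higher in SRA than in CON under saline, and 19 of the 23 lower ones were also lower there. Among all separated transcripts the saline sign was the same for 91.8% of the 594 higher and 74.8% of the 310 lower. Among all tested transcripts it was the same for 72.5%. For 21 of the 36, however, the highest of all 14 values was that of 1 saline library, SRA replicate 3. The filter mean included that library, so a high value there helped a transcript to be tested. The shared sign of these 21 under saline is therefore not independent of the filter. None of the 23 lower ones peaked in SRA replicate 3.

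The transcripts with the largest upward differences shared this pattern. Among separated transcripts 11 were at least 8-fold higher in SRA_CGP, and all 11 were highest in SRA replicate 3, where their rescaled values ran from 2577 to 35153 with a median of 5115. Their medians were 324 in SRA_CGP replicate 1 and 644 in replicate 3, and 31 in replicate 2 and 70 in replicate 4. In the 4 CON_CGP libraries the medians were 5 to 15 and no value exceeded 30. In SRA replicates 1 and 2 the medians were 5 and 8, so the transcripts were not a common feature of the transgenic mice under saline. Their summed level in SRA_CGP replicates 1 to 4 came to 5.77%, 0.423%, 12.4% and 1.22% of that in SRA replicate 3. SRA_CGP replicates 1 and 3, the pair with the higher levels, were also the SRA_CGP libraries that held 13.6% and 8.14% of other-sex transcripts, against 0.857% and 1.43% in replicates 2 and 4. CON_CGP replicates 1 and 4, with 10.4% and 8.86%, held the 11 transcripts at medians of 9 and 6. In the 4 libraries below 5%, the medians were 31 and 70 in SRA_CGP replicates 2 and 4 and 5 and 15 in CON_CGP replicates 2 and 3. SRA replicate 3, a male, held 4.88%, the highest share of the saline libraries. Whether material or reads of these libraries were mixed, and the part of these shares in the differences, was not tested. The 8-fold differences are given with that limit.

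**Figure D4:**
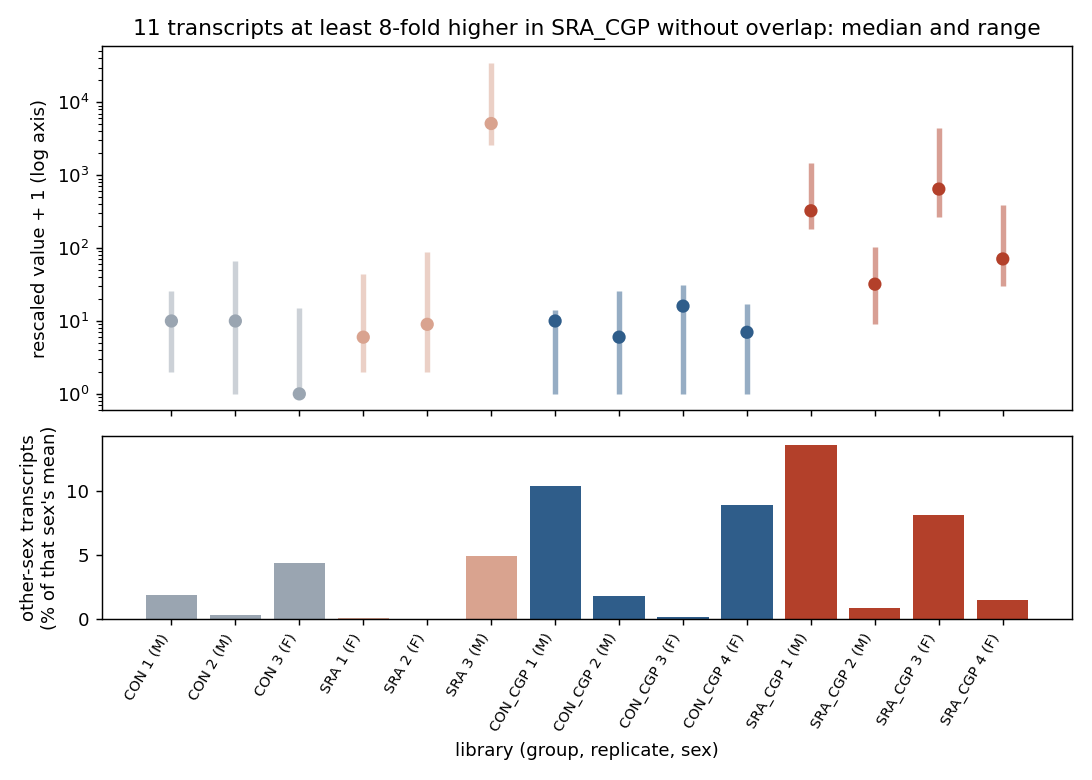
Upper panel, rescaled value plus 1 (log axis) of the 11 transcripts at least 8-fold higher in SRA_CGP without overlap, as median (point) and range (line) in each library. Lower panel, the total of the other sex's transcripts as a percent of its mean in the sex it marks. SRA replicate 3 is the highest library above, followed by SRA_CGP replicates 3 and 1, which also reach 8.14% and 13.6% below.

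Chosen after its values were known, uc008zkp.1 had the largest upward difference of the separated transcripts. It stood at 542, 32, 889 and 86 in SRA_CGP, at 1, 0, 3 and 0 in CON_CGP, at 2, 0 and 0 in CON, and at 3, 1 and 6520 in SRA. Its level was thus found in all 4 SRA_CGP libraries and in 1 of the 3 SRA libraries, and was at or near 0 in the rest. The filter mean included these transgenic libraries, so their high values helped this transcript to be tested. Its place among the tested transcripts is therefore not independent of the difference given here. The fitted log2 difference under CGP was 6.85 ± 2.16 (SE; limma adjusted p = 0.72), and 4.79 ± 3.63 without the 4 libraries that held other-sex transcripts. With values at 0 that difference depends on the number added before the logarithm.

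The largest downward difference, chosen in the same way, was that of uc008gom.1. Its rescaled values were 741, 585, 478 and 189 in CON_CGP and 15, 3, 0 and 2 in SRA_CGP, so that the groups did not overlap. In the saline libraries it was lower than in any CON_CGP library, at 140, 12 and 16 in CON and 93, 28 and 1 in SRA. As deposited, it was 689, 658, 518 and 192 in CON_CGP and at most 160 in any other library. The filter mean included the CON_CGP libraries, so their high values helped this transcript to be tested. Its place among the tested transcripts is therefore not independent of the difference given here. The log2 difference was -6.9 ± 1.26 (SE; 95% interval -9.66 to -4.13), -6.39 in males and -7.41 in females, and limma gave an adjusted p of 0.64. Its size depends on the number added before the logarithm, and was -5.7 with 5 added. Without the 4 libraries that held other-sex transcripts it was -7.25 ± 1.83 (SE), and over single libraries left out it lay between -7.62 and -6.25. Under saline the log2 difference was -0.69 ± 1.49 (SE), and the test of the transgene by infusion gave -6.2 ± 1.95 (SE; limma adjusted p = 0.927).

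Whether the transgene difference under CGP was the same in the sexes was tested within the 8 CGP libraries. limma called 0 of 31967 transcripts for the transgene by sex (0% called, smallest adjusted p = 0.552), and 2836 had an unadjusted p under 0.05 (8.87%). Of these, 2086 had the higher difference in males (6.53%) and 750 in females (2.35%), 73.6% in the first direction, against 63% after quantile normalization. The number moved with single libraries. Leaving out CON_CGP replicate 2 gave 9238 (smallest limma adjusted p = 0.0755), and leaving out CON_CGP replicate 3 gave 489. With SRA_CGP replicate 2 left out there were 597, with SRA_CGP replicate 4 left out 1115, and with CON_CGP replicate 1 left out 1144.

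Measures of how far the sexes went together pointed different ways. The sign was the same in males and females for 13489 transcripts (42.2%), and across transcripts the correlation of the male with the female difference was -0.27 (Pearson) and -0.22 (Spearman), over 31967 transcripts from 4 libraries on each side. Differences were larger in females, with a median absolute log2 difference of 0.29 against 0.17 in males. Of the 31967 tested transcripts, 223 were at least 2-fold higher and 30 at least 2-fold lower in SRA_CGP in both sexes. Another 675 were 2-fold or more in opposite directions. By complete separation, 2 libraries against 2 in each sex, 1359 of the 31967 were higher and 872 lower in SRA_CGP in both sexes. Within males alone 3289 were higher and 3615 lower without overlap, and within females alone 9972 and 9024. Groups of 2 separate often whatever their labels. Group size was the same in both sexes, however, so it does not account for the larger counts in females. These counts were not set against random labels and were not tested. By the same measure 396 were higher in males and lower in females, and 639 the reverse. Among the 675, by contrast, 637 were higher in SRA_CGP males and lower in SRA_CGP females and 38 the reverse. These numbers were 649 and 15 with the values as deposited. Within SRA_CGP, 13.8% of transcripts differed 2-fold or more between females and males, against 6.01% within CON_CGP (2 libraries per sex, no test).

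The 637 transcripts, in 464 clusters of near copies, did not follow sex alone. Their median rescaled value was 492 and 1015 in the SRA_CGP males and 139 and 65 in the SRA_CGP females. In CON_CGP it was 120 and 720 in the males and 724 and 455 in the females. The lowest of the 14 libraries was SRA_CGP replicate 4 for 84% of them and CON_CGP replicate 1, a male, for 9.89%. The highest was SRA_CGP replicate 2 for 78.6%. The saline libraries had medians from 261 to 743. Low levels were therefore found in 3 CGP libraries of both genotypes and both sexes, and SRA_CGP replicates 2 and 4 are the extremes of the first principal component. These transcripts were chosen by the same values and carry no test.

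uc007wfo.1 had the smallest p among transcripts whose difference was higher in males. Its values were 1007 and 1030 in SRA_CGP males and 285 and 415 in CON_CGP males, and 147 and 65 in SRA_CGP females and 619 and 340 in CON_CGP females. The log2 difference was 1.56 in males and -2.22 in females, and their difference was 3.78 ± 0.65 (SE; limma adjusted p = 0.552). In the same way uc008fls.1 stood at 2461 and 2451 in SRA_CGP males, 877 and 1383 in CON_CGP males, 647 and 562 in SRA_CGP females and 903 and 985 in CON_CGP females. Both transcripts were highest in the SRA_CGP males and lowest in the SRA_CGP females.

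The mirror pattern was led by uc008osp.2, at 108 and 99 in SRA_CGP males and 369 and 446 in CON_CGP males, and at 200 and 251 in SRA_CGP females and 162 and 110 in CON_CGP females. Its male minus female difference was -2.69 ± 0.4 (SE; limma adjusted p = 0.552). uc009fwj.2 stood at 210 and 124 in SRA_CGP males, 1076 and 713 in CON_CGP males, 1296 and 1941 in SRA_CGP females and 538 and 947 in CON_CGP females. Its male minus female difference was -3.58 ± 0.58 (SE; limma adjusted p = 0.552). For both, the SRA_CGP males lay below and the SRA_CGP females above the CON_CGP mice of their own sex, although the saline CON female stood at 560 for uc008osp.2, above both SRA_CGP females.

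**Figure D5:**
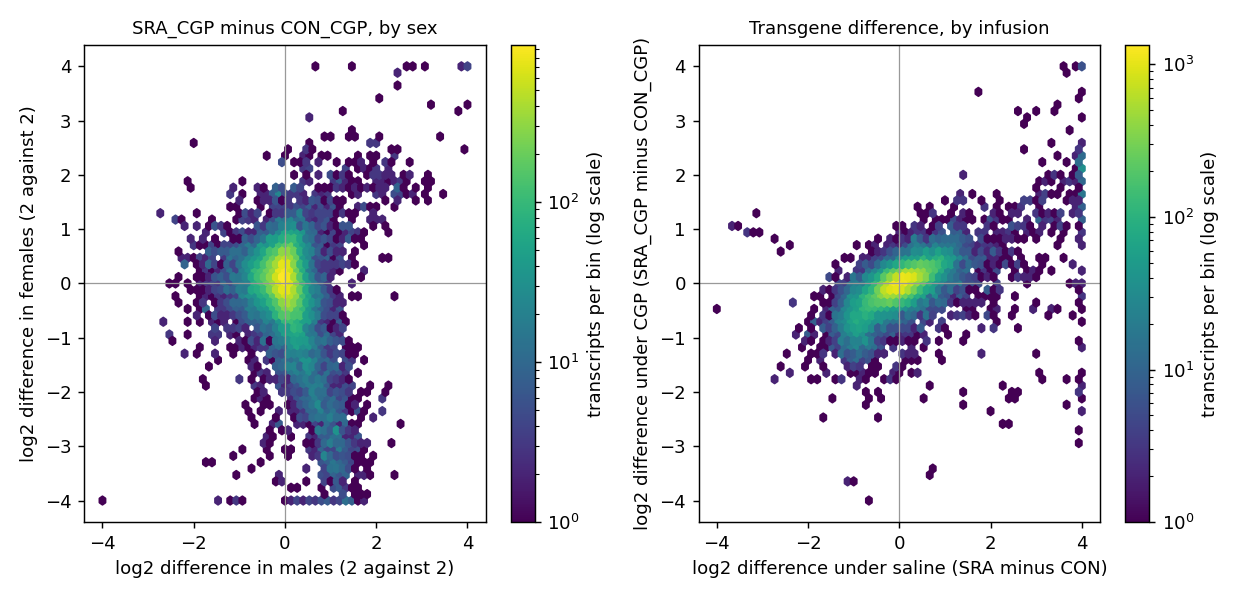
Left, log2 difference SRA_CGP minus CON_CGP in males (x axis) and in females (y axis). Right, log2 difference of the transgene under saline (x axis) and under CGP (y axis). Color gives the number of transcripts per bin on a log scale, and 75 (left) and 166 (right) transcripts beyond 4 log2 units are drawn at the edge. On the left a tail of transcripts runs to the lower right, higher in SRA_CGP males and lower in SRA_CGP females, and on the right the cloud runs from lower left to upper right.

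The saline groups held the same genotype difference in other libraries, and most transcripts had the same sign in both. The groups behind the 2 differences share no library. The saline libraries, however, entered the spread and the sex term behind the p-values under CGP. The saline groups were unbalanced by sex, so the shared sex term, fitted on the CGP libraries too, entered the saline differences themselves. The 2 sets of differences are therefore not fully independent. Across transcripts the difference under CGP and that under saline had a correlation of 0.65 (Pearson) and 0.63 (Spearman), over 31967 transcripts, all of them read from 8 CGP and 6 saline libraries that share 1 sex term in the fit. The sign was the same for 23191 transcripts (72.5%). Of the 1228 transcripts higher in SRA_CGP at an unadjusted p under 0.05, 1120 (91.2%) were higher in SRA too, and of the 936 lower ones 814 (87%) were lower in SRA. Their median log2 differences were 0.38 under CGP and 0.36 under saline for the higher set, and -0.44 and -0.3 for the lower set. Complete separation in the same direction under saline was seen for 246 of the 594 higher and 94 of the 310 lower transcripts, and in the opposite direction for 8 of each. These are 41.4% of the higher and 30.3% of the lower set, where 20.2% of all tested transcripts were higher and 20.9% lower without overlap under saline, 3 libraries against 3. The saline shares were not set against random labels. They do not compare directly with the 2.83% under CGP, where the groups were larger. Over both infusions 119 of the 31967 tested transcripts were higher and 33 lower in all 7 transgenic than in all 7 non-transgenic libraries. CON held 2 males and 1 female and SRA 1 male and 2 females. The sex term of the fit adjusts for this, and the counts without overlap do not.

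Whether CGP altered the transgene difference was tested as the difference between both infusions. limma called 0 of 31967 transcripts (0% called, smallest adjusted p = 0.927), and 1318 had an unadjusted p under 0.05 (4.12%), 350 with a higher difference under CGP (1.09%) and 968 with a lower one (3.03%). The direction turned with the scaling, since deposited values gave 741 higher and 435 lower and quantile normalization 758 and 568. The number of 1318 became 2231 without SRA_CGP replicate 3 (smallest limma adjusted p = 0.0599) and 2149 without CON_CGP replicate 2. Leaving out CON replicate 3 gave 723 and leaving out CON replicate 1 gave 817. With CON_CGP replicate 1 left out there were 871, and with the 4 libraries that held other-sex transcripts left out 776. For comparison, limma called 0 transcripts under saline as well (smallest adjusted p = 0.132), where 6569 (20.5%) had an unadjusted p under 0.05, 4859 higher in SRA (15.2%) and 1710 lower (5.35%). With the values as deposited 1805 were higher and 6246 lower, so that direction followed the scaling too. The median SE was 0.18 under CGP and 0.21 under saline, and no transcript passed the test of the difference.

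Of the 4 transcripts named for this test, 3 did not overlap between genotypes under saline and overlapped under CGP. They were chosen by the smallest p of this same test, which favors such a pattern. Among all tested transcripts, 20.2% were higher and 20.9% lower without overlap under saline, and 2.83% did not overlap under CGP. These shares come from 3 libraries against 3 and 4 against 4 and do not compare directly. uc009dkm.2 was at 2514, 2934 and 2959 in CON and 1589, 1454 and 1436 in SRA, whereas CON_CGP had 1878, 2541, 1878 and 2324 and SRA_CGP 2024, 2833, 1999 and 2042, which overlap. Its log2 difference was -0.89 ± 0.16 under saline and 0.04 ± 0.14 under CGP (SE), and the difference between them was 0.93 ± 0.21 (SE; limma adjusted p = 0.927). uc008hqg.1 showed the reverse, at 1412, 1484 and 1549 in CON and 2074, 2179 and 1951 in SRA, whereas CON_CGP had 1834, 1554, 1786 and 1724 and SRA_CGP 1546, 1530, 1775 and 1783, which overlap. The difference between its log2 differences was -0.5 ± 0.11 (SE; limma adjusted p = 0.927).

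uc012cti.1 stood at 1132, 1718 and 144 in SRA and 30, 15 and 86 in CON, but at 38, 22, 81 and 125 in SRA_CGP and 39, 14, 53 and 66 in CON_CGP. As deposited, it was 1081, 1618 and 123 in SRA and at most 116 in any other library. The filter mean included the SRA libraries, so their high values helped this transcript to be tested. Its place among the tested transcripts is therefore not independent of the differences given here. The CGP groups overlapped, with a log2 difference of 0.53 ± 0.45 (SE), and the test of the transgene by infusion gave -3.06 ± 0.7 (SE; limma adjusted p = 0.927). uc009evp.1 also followed sex within every group, with 55 and 66 in the CON_CGP males and 246 and 371 in the CON_CGP females. It was at 102 and 96 in the SRA_CGP males and 395 and 681 in the SRA_CGP females. Within each sex SRA_CGP was above CON_CGP, with a log2 difference of 0.75 ± 0.22 (SE; limma adjusted p = 0.72), against -0.64 ± 0.26 (SE) under saline. The difference between these was 1.39 ± 0.34 (SE; limma adjusted p = 0.927), and 0.53 ± 1.5 without the sex term. None of the 4 transcripts passed.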

How the data were processed

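Total RNA of inguinal fat was sequenced in 14 libraries, per the labels' protocols. The submitters' processing notes name FastQC, Bowtie, edgeR and mm9, without version or role, and how reads were counted and normalized is not stated. Each deposited value is a score, headed as normalized counts in the authors' table, in whole numbers with nearly equal totals, so count models and intervals from depth were not used. Groups, replicate numbers and sex came from the labels, and 0 columns were left without a sample.

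Values were rescaled by median-of-ratios, filtered to a deposited mean of at least 100 (31967 of 55419 rows, 99.53% of the summed value) and analysed as log2(value + 1), which understates differences of low transcripts. limma 3.58.1 in R 4.3.3 was fitted on group and sex in all 14 libraries, with robust moderation following abundance, and p-values were 2-sided and adjusted by Benjamini-Hochberg over all tested rows. The transgene by sex was fitted on the 8 CGP libraries. Named are, per comparison, the 2 transcripts of smallest p in each direction, since none passed. Added to these are the largest separated difference in each direction and transcripts called in an alternative, all chosen after their values were seen. The groups compared, filter and transcripts were chosen with earlier results of these data known. Planned gene lists and cell type markers were not applied, as no ID had a name. No sequences are printed for the same reason. Alternatives covered scaling, pseudocount, filter, libraries fitted, the sex term, moderation and the replicate block.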

Additional observations from a re-analysis of the deposited data

Results flagged for a closer look

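Of 40 sets of 4 CGP values checked (the named transcripts and 6 measures of the libraries in each group), 2 had a single value far from the other 3. About 5% of such sets are expected to by chance. uc007thd.1 was at 121 in SRA_CGP replicate 1 and between 92 and 95 in the other SRA_CGP libraries, on a gap of 0.867 of the group's log2 range. uc009dkm.2 was at 2833 in SRA_CGP replicate 2 and between 1999 and 2042 in the others, on a gap of 0.938 of that range.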

How the results depend on the processing

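Of the 25 alternatives for the count of transcripts past the threshold under CGP, 22 gave 0. Filters at a mean of 10 and no filter each gave 1 call, uc008qvw.2, with a deposited mean of 41 and limma adjusted p of 0.0101 and 0.0108. Leaving out single libraries gave 0 to 1, the 1 being uc009mdp.2 without CON replicate 2. The number at an unadjusted p under 0.05 ran from 1076 (without SRA_CGP replicate 3) to 5292 (without CON_CGP replicate 1). The number without overlap ran from 1113 to 2686 over single libraries left out, and was 9237 without the 4 libraries that held other-sex transcripts, where 2 were left against 2. That alternative was chosen after seeing the data. The transgene by infusion kept 0 calls in 23 alternatives, with 723 to 2231 transcripts at an unadjusted p under 0.05 (2224 with no filter), and the transgene by sex in 15, with 489 to 9238 (4366 with no filter). None of the 14 named transcripts changed sign in the alternatives fitted for them. With quantile normalization 2117 transcripts had an unadjusted p under 0.05, 1285 of them higher.

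With the replicate number as a block in the 8 CGP libraries, limma called 0 transcripts (smallest adjusted p = 0.782) and 1630 had an unadjusted p under 0.05. Same-numbered libraries had correlated deviations of -0.066, 0.463, -0.401 and -0.538, so the numbers did not pair the libraries. The transgene by sex was not fitted without the 4 libraries, which left 1 per sex and genotype. Sequencing depth is unknown, so zeros carry no limit of detection.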
